A study of Mus musculus with 10 samples.

Results

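The liver builds and breaks down glycogen with a small set of enzymes and regulators, and 8 of their genes are described here: the glycogen-targeting subunits Ppp1r3b and Ppp1r3c, the synthesis genes Ugp2, Gyg, Gys2 and Gbe1, and the breakdown genes Pygl and Phka2. They were selected on their function in glycogen synthesis, breakdown and phosphatase targeting and on the measured difference between the groups, led by that of Ppp1r3b, so their differences between groups are a description and carry no test. Every probe set that the platform annotation gives a single symbol of these genes was taken, which gave 16 probe sets of 34945 and 8 genes of 18193. Ugp2 has 5 probe sets, Phka2 has 3, Ppp1r3c and Gyg have 2 each, and Ppp1r3b, Gys2, Gbe1 and Pygl have 1.

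Glycogen is the branched glucose store of hepatocytes, filled after feeding and emptied in fasting to keep up blood glucose. Its synthesis needs an activated sugar, a protein primer, a chain-extending synthase and a branching enzyme, and its breakdown is run by a phosphorylase that is switched on by phosphorylase kinase. Protein phosphatase 1 works the other way: it removes phosphate from synthase and phosphorylase, which favours storage, and targeting subunits such as those of Ppp1r3b and Ppp1r3c hold it on the glycogen particle.

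Liver RNA came from 10 ApoE-/- mice, which lack apolipoprotein E by their label, with 1 mouse on each Affymetrix mouse array. The control group of 5 mice had been given an adenovirus that carries GFP, a fluorescent protein (arrays 11 to 15). The other 5 mice had been given an adenovirus that carries a dominant negative form of cJun, one of the proteins that make up AP-1, a transcription factor (arrays 16 to 20). Age, sex, feeding state, virus dose and time after infection are not given in the labels.

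Several features of the arrays bear on these groups. Apoe signal was 9.42 to 10.94 across the controls and 15.31 to 15.82 across the other group on the log2 scale. The latter range goes against the genotype that the labels give those 5 mice, and these arrays are therefore called dn-cJun-labelled. The controls carry the same genotype label and were read on the same probe set. Whether that probe set reads sequence that the mutation spares was not tested. In the differences below, the virus cannot be told apart from a difference in genotype or labelling between the groups. Jun was 10.18 to 10.73 across the controls and 9.84 to 10.82 across the dn-cJun-labelled arrays and does not check the virus. Xist, which coats the inactive X chromosome, was at 13.71 and 13.63 in controls 14 and 15 and no higher than 6.72 in the other arrays. The Y-linked Eif2s3y was at 5.22 and 4.08 in those controls and at least 10.58 elsewhere. By these genes controls 14 and 15 read as female and the other arrays as male, so only the control group mixes the sexes. The difference of each of the 8 genes, on its brightest probe set, is therefore also given without controls 14 and 15. Control 11 is the array whose extraction entry names Trizol. The median deposited intensity was 89.4 to 127.1 across the controls and 85.1 to 98.5 across the dn-cJun-labelled arrays. The 3 prime to 5 prime log2 difference of the control probe sets differed between the groups by 0.03 for Gapdh and 0.04 for Actb (exact permutation test, two-sided, with 252 splits; adjusted p = 0.429 for both). On the deposited values these differences were -0.031 for Gapdh (adjusted p = 0.405) and 0.12 for Actb (adjusted p = 0.0159, same exact permutation test). Of 41 markers in 8 cell type lists, 31 were tested, 0 passed (limma, adjusted over all genes) and 6 had an unadjusted p under 0.05. Over all genes tested, 0.777% passed and 14.9% had an unadjusted p under 0.05. The summed level of each of the 8 lists overlapped between the groups. The hepatocyte list, the strongest, summed to 211800 to 237800 across the controls and 228200 to 254800 across the dn-cJun-labelled arrays. The adipocyte markers Adipoq and Lep lay below the filter on dim genes. In whole liver, a change in the number of cells of a type and a change in RNA per cell cannot be told apart.

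Ppp1r3b had the largest difference between the groups of the 8 genes, and was higher in the dn-cJun-labelled arrays. It encodes GL, the main glycogen-targeting subunit of protein phosphatase 1 in liver, through which phosphorylase also controls the activation of glycogen synthase. The gene lies at chr8:35375694-35388139 (GRCm38.p6). Its log2 signal, which is log2(intensity + 16) after quantile normalization in all that follows, was 10.45, 11.45, 10.80, 10.94 and 10.73 in controls 11 to 15. In the dn-cJun-labelled arrays 16 to 20 it was 11.56, 11.68, 11.85, 11.84 and 12.06. Every dn-cJun-labelled array was above every control, with control 12 the nearest control and control 11 the lowest. The means were 10.88 ± 0.37 (SD, n = 5) and 11.80 ± 0.19 (SD, n = 5), a log2 difference of 0.92 with a standard error of 0.15, or 1.89-fold on that scale. In the deposited intensity, before any normalization here, the controls spanned 1687 to 2870 and the dn-cJun-labelled arrays 2879 to 4013. The log2 difference was 0.90 (SE 0.19) without controls 14 and 15, 0.82 without control 11 and 1.06 without control 12. Within the controls, arrays 14 and 15, with high Xist, lay inside the range of the other 3.

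**Figure D1:**
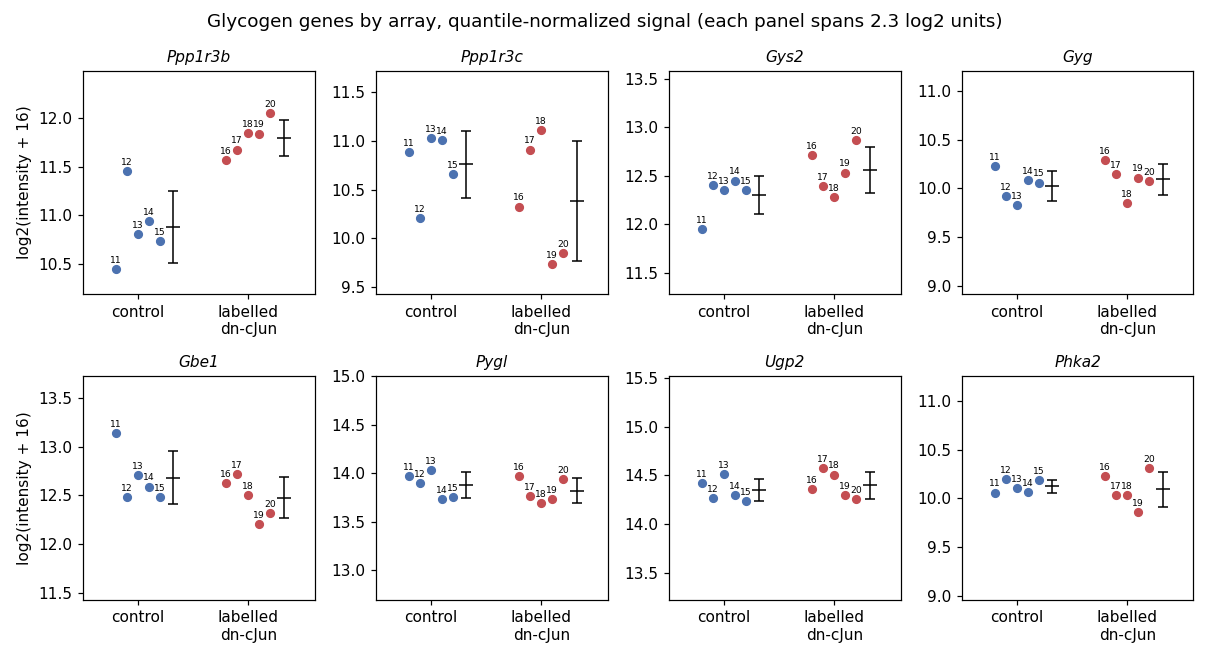
Each panel plots 1 glycogen gene, with log2(intensity + 16) after quantile normalization on the vertical axis, a numbered point for each array, and a bar for the group mean and its SD (n = 5). Ppp1r3b is the only panel in which the dn-cJun-labelled points, from 11.56 to 12.06, all lie above the controls, from 10.45 to 11.45, and Ppp1r3c shows the widest spread within a group.

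Ppp1r3b was also the only one of the 8 genes past the threshold used across the array (limma, adjusted p under 0.05 over 12736 genes). Over all genes tested, 0.777% passed, 0.345% as higher and 0.432% as lower. Since the genes were chosen with this contrast in view, nothing is read from that count. Of all genes, 14.9% had an unadjusted p under 0.05, against 2 of the 8. Group ranges that do not overlap occurred in 4.22% of all genes and in 1 of the 8. The call of Ppp1r3b was lost without control 13 and without each of the dn-cJun-labelled arrays 17, 18, 19 and 20, and it stood in the other 5 such fits. When controls 14 and 15 were dropped, 0.408% of 12758 genes passed in limma and 1742 had an unadjusted p under 0.05. Of the 8 genes, 0 passed in that fit and 2 had an unadjusted p under 0.05.

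**Figure D2:**
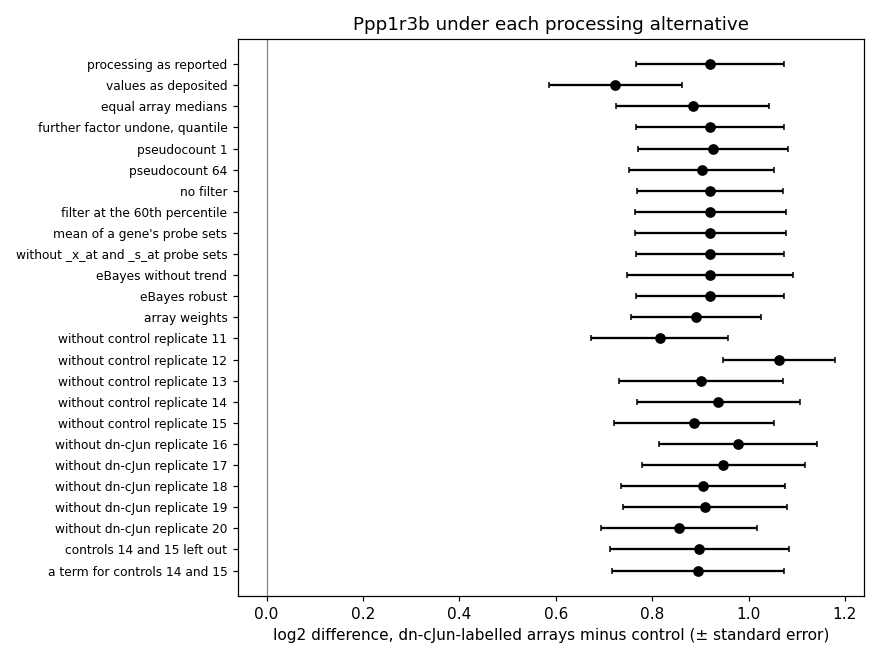
The horizontal axis is the log2 difference of Ppp1r3b, dn-cJun-labelled arrays minus control, with its standard error, for each processing alternative listed on the vertical axis. The difference stays between 0.72 with the values as deposited and 1.06 without control 12.

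The other targeting subunit, Ppp1r3c, had a lower mean in the dn-cJun-labelled arrays, but the groups overlapped in both of its probe sets. Ppp1r3c encodes PTG (protein targeting to glycogen), a widely expressed subunit that binds phosphatase, synthase and phosphorylase, and lies at chr19:36731731-36736604. Its brighter probe set gave 10.89, 10.21, 11.03, 11.01 and 10.66 in controls 11 to 15, where control 12 was lowest. In arrays 16 to 20 it gave 10.33, 10.91, 11.11, 9.73 and 9.84, so the group held both the highest array (18) and the lowest (19 and 20) of all 10. The means were 10.76 ± 0.34 (SD, n = 5) and 10.39 ± 0.62 (SD, n = 5), a log2 difference of -0.37 with a standard error of 0.25. The second probe set gave -0.26 (SE 0.21), and in it array 20, at 8.30, was the lowest. Without controls 14 and 15 the difference was -0.32 (SE 0.30). The value rests on arrays 19 and 20: without array 19 it was -0.21, without array 20 it was -0.24, and without array 18 it was -0.55.

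The 250 bases before the start of Ppp1r3c are shown because it is the only targeting subunit among the 8 genes for which a promoter window was matched, and because AP-1 is the factor on which dominant negative cJun acts. The window is chr19:36736605-36736854 on the minus strand (GRCm38.p6, from RefSeq), with the E-box letters CACGTG, found once at 104 bases before the start, in capitals.
Ppp1r3c: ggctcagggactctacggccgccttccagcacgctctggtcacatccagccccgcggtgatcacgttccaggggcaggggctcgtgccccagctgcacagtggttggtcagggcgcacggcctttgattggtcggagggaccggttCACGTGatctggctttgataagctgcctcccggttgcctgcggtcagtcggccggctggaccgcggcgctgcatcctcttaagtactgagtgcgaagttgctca
The AP-1 letters TGANTCA and the CRE letters TGACGTCA, which read the same on both strands and can overlap CACGTG by their end letters (CA or TG), were searched in 7 windows of 300 bases that belong to 6 of the 8 genes (250 bases before to 50 after the start). Neither was found in these 7 windows, while TGANTCA occurs in 7.81% and TGACGTCA in 1.79% of all 32851 windows. CACGTG occurs in the windows of Ppp1r3c and Gyg and in 7.15% of all windows. Windows of Ppp1r3b and Gys2 were not analysed here. A match or its absence describes these letters only.

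Among the synthesis genes, Gys2 leaned higher and Gbe1 lower in the dn-cJun-labelled arrays, and Ugp2 and Gyg differed little. Gys2 encodes the liver form of glycogen synthase, the enzyme that extends the glucose chain, at chr6:142422612-142473130. Its log2 signal was 11.95, 12.40, 12.35, 12.45 and 12.35 in controls 11 to 15, with control 11 apart from the other 4. It was 12.72, 12.39, 12.28, 12.53 and 12.86 in arrays 16 to 20, so arrays 16, 19 and 20 were above all controls and arrays 17 and 18 were not. The means were 12.30 ± 0.20 (SD, n = 5) and 12.56 ± 0.24 (SD, n = 5), a log2 difference of 0.26 with a standard error of 0.12. It was 0.17 (SE 0.11) without control 11, 0.32 (SE 0.14) without controls 14 and 15, and 0.08 on the deposited scale, on which the median of all genes lay at -0.19.

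Gbe1, the branching enzyme that makes the side chains of glycogen, lies at chr16:70313949-70569720. It was at 13.14, 12.48, 12.71, 12.59 and 12.49 in controls 11 to 15 and at 12.63, 12.72, 12.51, 12.21 and 12.32 in arrays 16 to 20. Control 11 was the highest of all arrays, and arrays 19 and 20 were the lowest. The means were 12.68 ± 0.27 (SD, n = 5) and 12.48 ± 0.21 (SD, n = 5), with a log2 difference of -0.21 (SE 0.13). Without control 11 the difference was -0.09 (SE 0.10), and without controls 14 and 15 it was -0.30 (SE 0.15). Control 11 was thus at opposite ends in Gys2 and Gbe1, and whether the extraction plays a part in this was not tested.

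Ugp2 makes UDP-glucose, the activated sugar that glycogen synthase uses, and lies at chr11:21321126-21371267. Its brightest probe set was 14.24 to 14.51 across the controls and 14.25 to 14.57 across the dn-cJun-labelled arrays, with a log2 difference of 0.05 (SE 0.08), and of -0.0029 without controls 14 and 15. The other 4 probe sets had negative differences of -0.28 (SE 0.10), -0.14 (SE 0.12), -0.12 (SE 0.11) and -0.06 (SE 0.10). The most negative read 11.86 to 12.19 across the controls and 11.41 to 11.88 across the dn-cJun-labelled arrays, so the groups overlapped only between 11.86 and 11.88. Array 19 was the lowest of all arrays in 3 of these 4 probe sets, and array 20 in the remaining one. The probe sets of Ugp2 thus disagree in sign, and which of its transcripts each one reads was not tested. Gyg encodes glycogenin, the protein primer on which a glycogen particle starts, at chr3:20122083-20155117. Its probe sets had log2 differences of 0.07 (SE 0.10) and 0.10 (SE 0.11), with overlapping groups in both, and the brighter one was at 0.10 without controls 14 and 15.

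**Figure D3:**
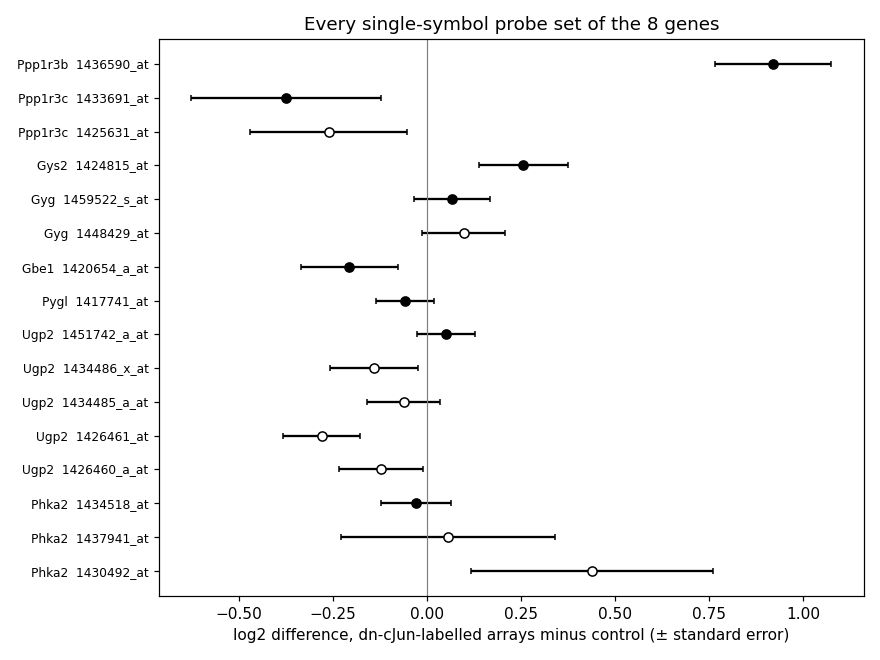
The horizontal axis is the log2 difference, dn-cJun-labelled arrays minus control, with its standard error (5 arrays per group), for each of the 16 probe sets on the vertical axis, and filled points mark the probe set that represents a gene. Ppp1r3b stands at 0.92, both Ppp1r3c probe sets are below 0, and the Ugp2 probe sets fall on both sides of 0.

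Of the breakdown genes, neither showed a difference beyond the spread of its arrays. Pygl encodes liver glycogen phosphorylase, the enzyme that releases glucose 1-phosphate from glycogen, at chr12:70190815-70227683. It was 13.97, 13.90, 14.03, 13.74 and 13.76 in controls 11 to 15 and 13.97, 13.77, 13.69, 13.73 and 13.94 in arrays 16 to 20, and both groups held high and low arrays. The means were 13.88 ± 0.13 (SD, n = 5) and 13.82 ± 0.13 (SD, n = 5), with a log2 difference of -0.06 (SE 0.08). Controls 14 and 15 were its lowest controls, and without them the difference was -0.15 (SE 0.08). Phka2 encodes the regulatory alpha subunit of the liver phosphorylase kinase and lies on the X chromosome at chrX:160501904-160598879. Its brightest probe set was 10.06 to 10.20 across the controls and 9.86 to 10.31 across the dn-cJun-labelled arrays, a log2 difference of -0.03 (SE 0.09), both with and without controls 14 and 15 (-0.03, SE 0.11). Controls 14 and 15, with high Xist, read 10.06 and 10.19 and did not stand apart. A dimmer probe set gave 0.06 (SE 0.28), and the faintest one lay below the filter on dim genes and gave 0.44 (SE 0.32), with array 17 high at 6.22. Over the 8 genes the median log2 difference was 0.0112, with 4 higher and 4 lower, beside a median of 0.0015 over all 12736 genes. The number higher was 3 without controls 14 and 15 and 5 with equal array medians. It was 2 on the deposited scale, where the median of all genes lay at -0.19.

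Deviations from the group mean, which the choice of genes by the contrast did not use, spanned more for Ppp1r3c than for the other genes. The deviation of Ppp1r3c ran from -0.65 in array 19 to 0.73 in array 18. Ugp2 followed it: the deviations of both genes had the same sign in every array but control 14. Over the 10 arrays their Pearson correlation was 0.82 and their Spearman correlation 0.83, the highest of 28 pairs among the 8 genes. The two-sided exact permutation p, with arrays rearranged within each group, was 0.015 and 0.0141, and after Benjamini-Hochberg adjustment over the 28 pairs it was 0.351 and 0.283, so the relation did not hold after correction. Without the arrays farthest from the median of Ppp1r3c (18 and 19) the Pearson correlation was 0.80, within the controls it was 0.60 (n = 5) and within the dn-cJun-labelled arrays 0.94 (n = 5), and with equal array medians in place of quantile normalization it was 0.73. Gbe1 and Ugp2 had a Pearson correlation of 0.68 (exact permutation p = 0.0431, adjusted p = 0.351) and a Spearman correlation of 0.75 (exact permutation p = 0.026, adjusted p = 0.283), and the Pearson value was 0.69 without control 11 and array 17. Ppp1r3b and Gbe1 had the most negative Pearson correlation, -0.71 (exact permutation p = 0.0531, adjusted p = 0.351), and -0.52 without control 11, with a Spearman correlation of -0.61 (exact permutation p = 0.0817, adjusted p = 0.393). The most negative Spearman correlation was that of Ppp1r3b and Gyg, -0.62 (exact permutation p = 0.0842, adjusted p = 0.393), with a Pearson correlation of -0.55 (exact permutation p = 0.116, adjusted p = 0.358), or -0.39 without controls 11 and 12. For Ppp1r3b and Gbe1, without controls 11 and 12, the arrays farthest from the Ppp1r3b median, the Pearson correlation was -0.59. By Spearman, Ppp1r3c and Gbe1 (0.73, exact permutation p = 0.0303, adjusted p = 0.283) were also under 0.05 before adjustment. So were Gys2 and Phka2 (0.72, exact permutation p = 0.0485, adjusted p = 0.339). Of the 28 pairs, 14 were positive and 14 negative by Pearson, 2 had an exact permutation p under 0.05 by Pearson, and 0 passed after adjustment. This family of correlations was chosen after the values had been seen.

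**Figure D4:**
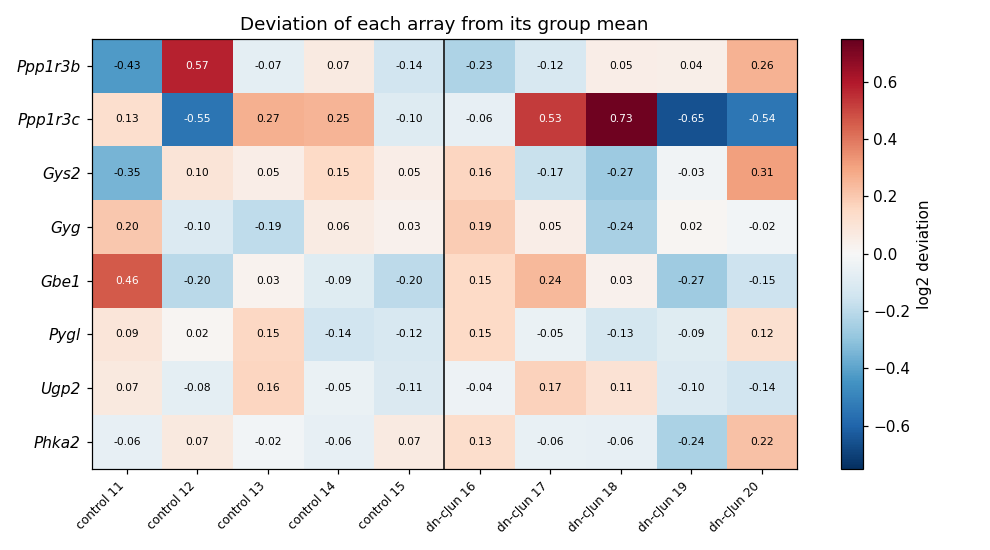
The map shows, for each of the 8 glycogen genes (rows) and 10 arrays (columns), the log2 deviation of the array from the mean of its group, in colour and as a number. Ppp1r3c has the strongest colours, from -0.65 in array 19 to 0.73 in array 18, and control 11 is low in Ppp1r3b and Gys2 and high in Gbe1.

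The genes whose deviations were most like those of Ppp1r3b over the 10 arrays, among 12735 ranked, were Abat, which breaks down the transmitter GABA, at a Pearson correlation of 0.97, Man1a, a mannosidase of the Golgi, at 0.94, Afmid, an enzyme of tryptophan breakdown, at 0.94, Ccdc3 at 0.92 and Mtcp1 at 0.92. Those most opposed were Dram2 at -0.98, Tfpi, an inhibitor of coagulation, at -0.94 and Ifi207 at -0.93. These are the ends of a ranking of many genes over few arrays, and they are given as a description. Without controls 11 and 12, the arrays in which Ppp1r3b lay farthest from its median, the correlation was 0.93 for Man1a, 0.89 for Abat and Mtcp1, 0.78 for Afmid and 0.69 for Ccdc3. It was -0.98 for Dram2, -0.79 for Ifi207 and -0.75 for Tfpi.

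The rest of the pathway gave no gene past the threshold. Of 29 further genes of glycogen metabolism and glucose exchange, 27 had a probe set with a single symbol and 23 passed the filter on dim genes. Of these 23, 13 were higher and 10 lower, 0 passed in limma after adjustment over all genes, and 4 had an unadjusted p under 0.05, beside 14.9% of all genes. With arrays left out, 22 to 24 pathway genes and 12727 to 12763 genes in all were tested. The pathway count at an unadjusted p under 0.05 is given with that of all genes in brackets. It was 0 without controls 14 and 15 (1742), and 1 without control 11 (1744), array 19 (1637) or array 20 (1731). It was 2 without control 15 (1652), and 3 without control 13 (1744), control 14 (1680) or array 17 (1747). It was 4 without array 16 (1800), 5 without array 18 (1706) and 6 without control 12 (2096). The median log2 difference of the 23 genes was 0.02, beside 0.0015 over all genes.

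Among the other targeting and catalytic subunits of the phosphatase, 6 were tested, 0 passed and 1 had an unadjusted p under 0.05. Ppp1r3f had the smallest p of this group, with a log2 difference of -1.04 (SE 0.48, limma adjusted p = 0.333). It read 8.10, 5.16, 6.73, 6.15 and 7.25 in controls 11 to 15 and 5.23, 5.34, 6.49, 5.69 and 5.43 in arrays 16 to 20, so its control values ranged more widely than the difference. Ppp1r3g, a further targeting subunit, was at 0.60 (SE 0.38, limma adjusted p = 0.491), with arrays 19 and 20 highest, up to 8.55. The catalytic subunits Ppp1ca, Ppp1cb and Ppp1cc were at -0.10 (SE 0.07), -0.05 (SE 0.12) and -0.01 (SE 0.06). Ppp1r3a, the muscle targeting subunit, and Ppp1r3d lay below the filter.

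Among the other enzymes of synthesis and breakdown, 5 were tested, and 0 passed before or after adjustment. Pygb, the brain form of phosphorylase, had the smallest p, at 0.47 (SE 0.24, limma adjusted p = 0.373). Its groups overlapped, with control 11 the highest array at 9.92 and control 14 the lowest at 8.25. Gys1, the muscle form of the synthase, was near the filter level of 6.06, at 6.18 and 6.33 in the group means, and Pygm, the muscle form of phosphorylase, was below it. Pgm1, a phosphoglucomutase, was at 0.02 (SE 0.09) and Gaa, the lysosomal glucosidase that degrades glycogen, at 0.09 (SE 0.10).

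Phosphorylase kinase is built of alpha, beta, gamma and delta subunits, and 3 of its other genes were tested with 0 past the threshold and 1 with an unadjusted p under 0.05. Phkg2, the catalytic gamma subunit of the liver enzyme, had the smallest p, at 0.21 (SE 0.09, limma adjusted p = 0.284). It read from 9.77 in control 11 to 10.06 in control 12, and from 10.04 in array 16 to 10.32 in array 19, so the groups overlapped through control 12 and array 16 alone. Phkb, the beta subunit, was at -0.11 (SE 0.11), and Phka1, the alpha subunit of muscle, at 0.03 (SE 0.18).

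Among the 5 other regulators, all tested, 0 passed and 1 had an unadjusted p under 0.05. Gsk3b, a kinase that inactivates glycogen synthase, had the smallest p of the 23 genes, at -0.32 (SE 0.10, limma adjusted p = 0.166). Its mean was 9.91 ± 0.13 (SD, n = 5) for the controls and 9.59 ± 0.18 (SD, n = 5) for the dn-cJun-labelled arrays, with overlapping ranges. Its other 5 probe sets ranged from -0.40 to 0.36. The brightest of these, at a mean of 9.73 over all arrays beside 9.75 for the one used, gave -0.02 (SE 0.09). Among the alternatives Gsk3b passed only on the deposited scale. Stbd1, a protein that binds glycogen, was at 0.12 (SE 0.07), and Gsk3a, the partner kinase, at -0.01 (SE 0.14).

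Of the genes of glucose entry and exit, 4 were tested, 4 were higher, 0 passed and 1 had an unadjusted p under 0.05. G6pc, which releases free glucose from glucose 6-phosphate, had the smallest p, at 0.72 (SE 0.30, limma adjusted p = 0.283). It read 12.09, 13.78, 13.42, 12.70 and 12.09 in controls 11 to 15 and 12.99, 13.48, 13.44, 13.89 and 13.86 in arrays 16 to 20, and arrays 19 and 20 were again at the end, here as the highest. Gckr was at 0.16 (SE 0.11), Slc37a4, the glucose 6-phosphate transporter, at 0.07 (SE 0.18), and Slc2a2, the glucose transporter of hepatocytes, at 0.05 (SE 0.08).

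**Figure D5:**
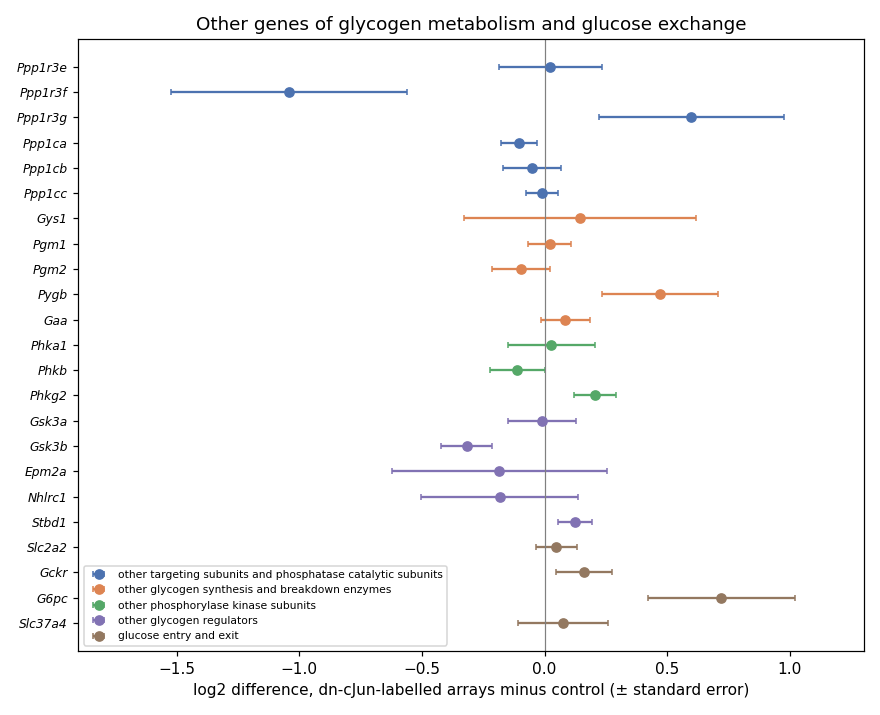
The horizontal axis is the log2 difference, dn-cJun-labelled arrays minus control, with its standard error (5 arrays per group), for the 23 further pathway genes tested, coloured by group. Gene values run from -1.04 for Ppp1r3f to 0.72 for G6pc, both with wide errors.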

How the data were processed

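The authors deposited linear probe set intensity; the software that produced it was not stated in the labels. In the deposited columns 100% of intensity values were whole multiples of 1 step per array within 0.02 steps. They also carried a further factor per array whose purpose is not stated. This factor was 0.991 to 1.22 across the controls and 0.887 to 1.01 across the dn-cJun-labelled arrays. Differences on the deposited scale include it. Array medians of log2(intensity + 16) spanned 0.502, so quantile normalization was applied. A gene was represented by its brightest probe set on average, and genes whose mean lay under the 40th percentile were dropped, leaving 12736 genes. Groups were compared with limma 3.58.1 in R 4.3.3 (lmFit, eBayes with an intensity trend, two-sided, Benjamini-Hochberg, threshold 0.05), tested on simulated data. Further probe sets come from the same fit over all 34945. Precision is limited by the number of arrays.

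The members, gene lists and alternatives were chosen with earlier results of these data known. The text names every member and its probe sets, any pathway gene past the threshold, the smallest p of each pathway group, Apoe, Jun, Xist and Eif2s3y, and the 5 genes most like and 3 most unlike Ppp1r3b; other pathway genes were added as examples after their values were seen. Replicate numbers differ between the groups and pair no arrays. Figures were drawn with matplotlib 3.10.9.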

Additional observations from a re-analysis of the deposited data

Results flagged for a closer look

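In 2 of the 32 groups of 5 arrays (16 probe sets in 2 groups), 1 array lay far from the other 4; chance does this in about 1 in 20 groups. Gys2 was at 11.95 in control 11, and its nearest control was at 12.35. The Phka2 probe set of middle brightness was at 6.18 in the dn-cJun-labelled array 20, and the nearest array of that group was at 7.19.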

How the results depend on the processing

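Of 192 values of the 8 genes under the alternatives, 188 lay within 1 SD of the value reported and 4 moved further. Gyg moved to -0.15 and Phka2 to -0.24 on the deposited scale, on which the median gene moved to -0.19. Ugp2 moved to -0.11 and Phka2 to 0.16 when the probe sets of a gene were averaged. Changing the filter, changing the eBayes setting or undoing the further factor before quantile normalization gave the reported difference for each of the 8 genes. Agreement under those settings therefore carries no weight. With 1 array left out, differences ran from 0.82 to 1.06 for Ppp1r3b, -0.55 to -0.21 for Ppp1r3c, 0.17 to 0.32 for Gys2, 0.02 to 0.13 for Gyg, -0.27 to -0.09 for Gbe1, -0.10 to -0.02 for Pygl, 0.0077 to 0.09 for Ugp2 and -0.08 to 0.03 for Phka2.

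The call of Ppp1r3b held in 12 of 14 other alternatives, several of which left its difference unchanged. Since the gene was chosen with this contrast in view, nothing is read from that count. In limma's eBayes without trend 0 of the 8 genes passed, and 1 had an unadjusted p under 0.05, beside 1776 of 12736 genes. Without controls 14 and 15 again 0 of the 8 passed, and 2 had such a p, beside 1742 of 12758 genes. With 1 array left out, 0 to 1 of the 8 passed. Over all genes, 99 passed, 490 as deposited (22 higher, 468 lower), 65 with equal array medians (20 higher, 45 lower), 44 with the mean of probe sets, 9 without trend, 52 without controls 14 and 15, 156 with a term for these controls and 170 with every probe set as the unit, against 13 (without array 17) to 199 (without control 12) with 1 array left out. Of the other pathway genes, 1 passed as deposited, and 0 with 1 array left out. The Gapdh 3 prime to 5 prime difference reversed to -0.031 as deposited, and that of Actb was 0.12 (exact permutation adjusted p = 0.0159); with 1 array left out these were 0.0083 to 0.05 and 0.01 to 0.06. The causes of these shifts were not tested. No paired analysis was possible because the replicate numbers of the groups do not overlap.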

Other observations

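Some further probe sets of pathway genes differed from the probe set that represents the gene, and they are given as values chosen after they were seen. For Epm2a, which encodes laforin, a glycogen phosphatase, the probe sets had log2 differences of -0.19 (SE 0.44) and 0.95 (SE 0.51). The probe sets of Ppp1cb, a catalytic subunit of protein phosphatase 1, had differences of -0.05 (SE 0.12), -0.12 (SE 0.12), 0.28 (SE 0.28) and 0.40 (SE 0.15), so the dimmer ones lay above 0 and the brighter ones below.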
